A study of Homo sapiens with 3 samples.

Results

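Of the 444 L3MBTL3 peaks called in MDA-MB-231 cells, 219 (49.3%, Wilson 95% interval 44.7 to 54.0) overlapped an RBPJ peak or lay within 1000 bases of one. These 219 peaks are the members described here. They were chosen by the measured peak intervals themselves: the gap between the edges of an L3MBTL3 peak and the nearest RBPJ peak had to be at most 1000 bases. The members fall into 127 overlapping peaks, which share at least 1 base with an RBPJ peak, and 92 adjacent peaks, which share none. Only 1 adjacent peak, at LRRC42, abutted its RBPJ neighbour with no base between them.

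MDA-MB-231 is an established human cell line from a triple-negative breast cancer. Cells grown in standard medium, with no treatment named in the labels, were used for chromatin immunoprecipitation and sequencing (ChIP-seq) with an antibody to RBPJ, with an antibody to L3MBTL3, and without an antibody (input DNA), 1 library each. The submitters compared where the 2 proteins sit on chromatin in the same line. Peak lists of the RBPJ library (2926 peaks) and the L3MBTL3 library (444 peaks) were analysed. Since each antibody has a single library, replicate spread is unknown, and every interval and p below covers counting over peaks in these libraries and not repeated experiments.

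RBPJ, also called CBF1, is the DNA-binding protein of the Notch pathway. When Notch is cleaved at the membrane its intracellular domain joins RBPJ and turns on target genes such as those of the HES and HEY families. Without it, RBPJ can hold the same genes down together with corepressors such as SPEN. L3MBTL3 is a protein with MBT domains, which bind methylated lysines, and it has been described as a partner of RBPJ that brings in the histone demethylase KDM1A. RBPJ recognises words of the type CGTGGGAA and TGTGGGAA, called high-affinity words below, which share the core TGGGAA.

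The sequences shown surround high-affinity words within 100 bp of the L3MBTL3 or the RBPJ summit, at members near Notch pathway genes, at some of the most enriched members and at SOCS3, a member just inside the distance limit. A word can lie beside the L3MBTL3 peak and not in it, as at SPEN, DGKH and ST3GAL3. Each is read from GRCh37 in the direction of the nearest gene, the word is in capitals, and TTCCCACG is the word CGTGGGAA on the opposite strand. The first 6 genes have overlapping members. The last 3 have adjacent members. Windows that touch an annotated untranslated region (UTR) are 30 bases long.
HES4, chr1:935537-935566, minus strand: gctggggcgagTGTGGGAAagaatgcggag
HEY2, first word, chr6:126070539-126070598, plus strand: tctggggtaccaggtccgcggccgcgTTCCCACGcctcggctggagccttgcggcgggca
HEY2, second word, chr6:126070762-126070791, plus strand: cagagttgcggCGTGGGAAagagccgctag
RBPJ, chr4:26321242-26321271, plus strand: gtttaggaaatTTCCCACGgccgtgttgtg
NRARP, chr9:140210601-140210660, minus strand: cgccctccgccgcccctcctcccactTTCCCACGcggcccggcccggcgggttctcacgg
SPEN, chr1:16161574-16161633, plus strand: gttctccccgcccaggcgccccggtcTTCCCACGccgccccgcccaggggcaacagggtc
DGKH, chr13:42623439-42623498, plus strand: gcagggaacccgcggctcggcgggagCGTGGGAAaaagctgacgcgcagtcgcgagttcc
RASIP1, chr19:49242362-49242421, minus strand: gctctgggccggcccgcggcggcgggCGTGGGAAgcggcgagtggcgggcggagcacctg
ST3GAL3, chr1:44173689-44173718, plus strand: tcgggccctgcTGTGGGAAaaggaaagaaa
SOCS3, chr17:76355468-76355527, minus strand: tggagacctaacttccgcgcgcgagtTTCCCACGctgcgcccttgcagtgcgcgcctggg

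At several overlapping members both summits sat close to the word. At NRARP the L3MBTL3 summit lay 8.5 bp and the RBPJ summit 36.5 bp downstream of the centre of the word. At HES4 these distances were 56.5 and 19.5 bp, and at the RBPJ gene 0.5 and 55.5 bp. At the adjacent members the word lay nearer to 1 of the summits. At ST3GAL3, a sialyltransferase gene, the RBPJ summit was 38.5 bp downstream and the L3MBTL3 summit 462.5 bp upstream of the word. At SOCS3, an inhibitor of cytokine signalling, the order was turned around: the L3MBTL3 summit was 59.5 bp downstream and the RBPJ summit 961.5 bp upstream.

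Most members held no high-affinity word within 100 bp of the L3MBTL3 summit, and members in general were rich in G and C. The strongest overlapping member and the strongest adjacent members without the word and outside UTRs are shown over 80 bases around the L3MBTL3 summit, with every CG in capitals. The SIPA1L2 window holds the core TGGGAA, in lower case here. The NAPG pair does have a high-affinity word outside its window, 0.5 bp from the RBPJ summit and 297.5 bp from the L3MBTL3 summit.
SIPA1L2, chr1:232766036-232766115, minus strand: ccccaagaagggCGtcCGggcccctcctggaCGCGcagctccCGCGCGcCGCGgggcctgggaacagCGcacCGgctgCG
SLC12A2, chr5:127419315-127419394, plus strand: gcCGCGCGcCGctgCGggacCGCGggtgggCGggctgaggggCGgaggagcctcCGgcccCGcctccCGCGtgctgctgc
NAPG, chr18:10526276-10526355, plus strand: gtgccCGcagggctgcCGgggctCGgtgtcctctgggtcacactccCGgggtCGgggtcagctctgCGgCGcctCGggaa
The 3 windows held 12, 13 and 8 CG pairs. Over all members the median G and C content within 100 bp of the L3MBTL3 summit was 75.6%, against 76.1% at the other 225 L3MBTL3 peaks and 69.7% at transcription start sites (TSS) with a CpG-rich surrounding (observed over expected CpG above 0.6).

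The count of members was set against the count that TSS proximity alone gives. Every L3MBTL3 peak was placed at its own signed distance from each of the 78530 annotated protein-coding TSS in turn, 34865573 placements in all. Of these placements 6.47% fell within 1 kb of an RBPJ peak, which corresponds to 28.7 of 444 peaks. The observed 219 exceeded it 7.63-fold (6.91 to 8.35, the Wilson bounds of the observed share over the placed one). The excess was larger for overlap than for adjacency. Overlap was found in 1.63% of placements, or 7.24 peaks, and 127 were observed, 17.5 times as many (15.1 to 20.2). Adjacency was found in 4.83% of placements, or 21.5 peaks, and 92 were observed, 4.29 times as many (3.56 to 5.12). These intervals count each peak as separate though several share a region, so they are too narrow. Many adjacent members lay in a region that also held an overlapping one, and placement by region was not run. Among placed peaks within 1 kb, 25.2% overlapped an RBPJ peak, against 58.0% of the members.

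The excess faded with distance. Gaps of up to 200 bases held 50 adjacent members against 8.57 by placement, gaps of 201 to 500 bases held 34 against 7.30, and gaps of 501 to 1000 bases held 8 against 5.59. Beyond the limit 7 L3MBTL3 peaks had gaps of 1001 to 2000 bases, against 3.70 by placement, and 213 of the other 225 were over 10 kb from any RBPJ peak. When peaks were placed only at TSS of the same CpG class, the ratio was 4.71 for all members, 10.4 for overlapping and 2.69 for adjacent members.

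**Figure D1:**
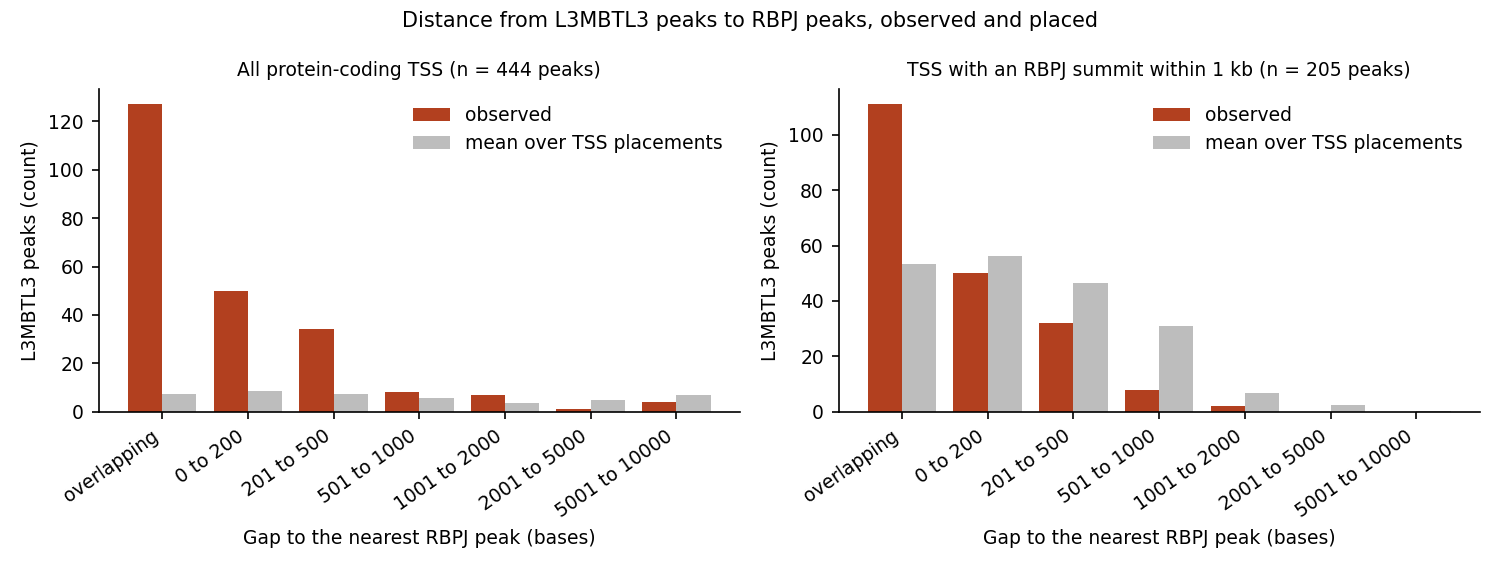
Number of L3MBTL3 peaks (y axis) by gap to the nearest RBPJ peak in bases (x axis), observed (red) and as the mean over placements at TSS (grey), for all TSS (left, 444 peaks) and for TSS with an RBPJ summit within 1 kb (right, 205 peaks). Gaps over 10 kb are not drawn. On the left the observed bars exceed the placed ones in each class up to 2000 bases, most for overlap, and on the right they do so for overlap (111 against 53.3).

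A further placement, added after the data had been seen, used only the 5973 TSS that have an RBPJ summit within 1 kb and the 205 L3MBTL3 peaks whose nearest TSS is of that kind. There 201 peaks lay within 1 kb of an RBPJ peak, against 187 by placement, a ratio of 1.07 (1.04 to 1.09). Overlap was observed 111 times against 53.3 (ratio 2.08, 1.82 to 2.34), and adjacency 90 times against 134 (ratio 0.673, 0.572 to 0.778). This choice of TSS nearly fixes the total within 1 kb (98.0% observed, 91.2% placed), so the lower adjacent count is the remainder after overlap and no separate result. At these promoters the L3MBTL3 peak coincided with the RBPJ peak more often than the same TSS distances at other such TSS give. Placement did not match the width of the RBPJ peaks, and wider ones are easier to overlap. Median RBPJ width was 142 bp for partners of overlapping members, 106 bp for partners of adjacent members and 91 bp for all RBPJ promoter peaks. How much width adds to the overlap ratios was not tested. The 5973 TSS count alternative TSS of a gene separately, and 1 TSS per gene was not run for this set.

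Summits of overlapping pairs lay a median of 51 bp apart (quartiles 22.5 and 98.5, largest 260), and 97 of 127 were within 100 bp. Summits of adjacent pairs lay a median of 302.5 bp apart (range 60 to 1021). The median adjacent gap was 160.5 bases, and 84 of 92 were at most 500 bases. The rule fixes that overlapping summits are nearer, so these values only describe the pairs. Just inside the limit stood the adjacent members at SETD3 (gap 888 bases), SOCS3 (856) and TMEM51 (793). Just outside it stood the L3MBTL3 peaks at TFEB (1136), KLF10 (1187) and TP53I13 (1347).

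The 219 members were not 219 independent places. Joined where they lay within 1 kb of each other, they formed 150 regions, and their nearest RBPJ peaks were 161 distinct peaks. A single member was found in 106 regions, 2 members in 27 and 3 or more in 17. Overlapping members stood alone with their kind in 83 regions, adjacent members in 35, and both kinds were found together in 32. Of the 92 adjacent members, 51 lay in a region that also held an overlapping member.

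The orientation of the pairs was read at 188 pairs in 126 regions, where both summits lay within 1 kb of the same TSS. The TSS of a pair was the one nearest to the midpoint between its summits, so neighbouring pairs could be read from different TSS. In the direction of transcription the L3MBTL3 summit was downstream of the RBPJ summit in 101 pairs and upstream in 86, and in 1 pair both fell on the same base. The downstream share of 54.0% had a Wilson interval of 46.9 to 61.0, which includes an even split. It was 53.5% at overlapping pairs (43.8 to 62.9) and 54.7% at adjacent pairs (44.2 to 64.7). L3MBTL3 was nearer to the TSS in 100 pairs and RBPJ in 87. The median position from the TSS was -11.5 bp for L3MBTL3 and -14 bp for RBPJ. Choosing the TSS by the midpoint favours even distances, so the nearness counts and medians only describe the pairs.

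The TSS itself fell between the summits in 58 of 188 pairs (30.9%), 29 with RBPJ upstream and 29 with L3MBTL3 upstream. It did so in 39 of 86 adjacent pairs (45.3%, 35.3 to 55.8) and 19 of 102 overlapping pairs (18.6%, 12.3 to 27.3), whose summits are closer together by the rule. Choosing the TSS nearest to the midpoint favours a TSS between the summits, so these shares only describe the pairs. A protein-coding TSS of the opposite strand lay within 1 kb of the pair's TSS, on either side, at 15 of the 188 pairs (7.98%). Noncoding TSS were not counted, and the share over all TSS was not computed. The share of summits downstream of the TSS was between that of the other L3MBTL3 promoter peaks and that of all RBPJ promoter peaks. Members are chosen by nearness to RBPJ peaks, so this order is not independent of the rule. L3MBTL3 summits were downstream of their TSS at 47.6% of 189 promoter members (40.6 to 54.7) and at 60.7% of 178 other L3MBTL3 promoter peaks (53.3 to 67.6). RBPJ summits were downstream at 34.4% of 1876 RBPJ promoter peaks (32.3 to 36.6). These shares were not tested against each other.

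**Figure D2:**
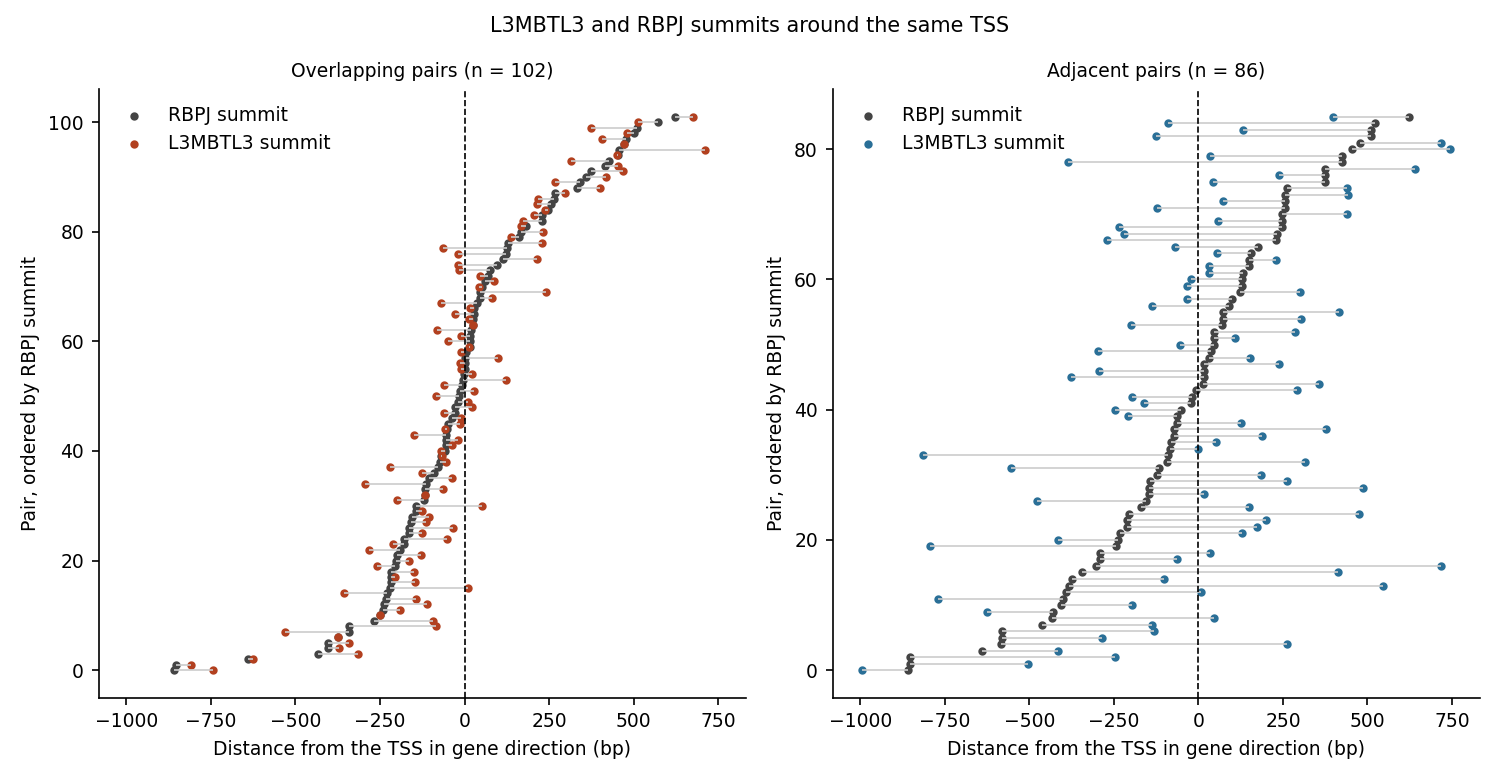
Position of the RBPJ summit (dark) and the L3MBTL3 summit (coloured) from the same TSS, in bp along the direction of transcription (x axis), for 102 overlapping pairs (left) and 86 adjacent pairs (right). The TSS is the one nearest to the midpoint between the summits of the pair. Each line is a pair, ordered by its RBPJ summit (y axis). L3MBTL3 summits lie to both sides of the RBPJ summits in both panels.

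Members were promoter peaks in the main. The summit was within 1 kb of a TSS at 189 of 219 members (86.3%) and at 178 of the 225 other L3MBTL3 peaks (79.1%), a difference that did not pass Fisher's exact test (two-sided; odds ratio 1.66, 95% interval 1.01 to 2.75, p = 0.0596). With a window of 2 kb it did (odds ratio 2.01, Fisher's exact test, p = 0.0114). Members lie near RBPJ peaks by the rule, and 1876 of 2926 RBPJ peaks were themselves at promoters. Promoter position is therefore not independent of the choice of members. Adjacent members were at promoters more often than overlapping members: 87 of 92 (94.6%) against 102 of 127 (80.3%), with an odds ratio of 0.234 for overlapping over adjacent (0.0861 to 0.639; Fisher's exact test, p = 0.00250). How far the cut into overlapping and adjacent peaks itself gives this difference was not tested. All but 1 of the 189 promoter members were at CpG-rich TSS, a class that holds 56.5% of all TSS, and so were 177 of the 178 other L3MBTL3 promoter peaks. By annotation 60 member summits fell in introns, 55 in UTRs, 24 in coding exons, 47 between genes and 33 elsewhere in annotated genes, most of them noncoding genes.

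The RBPJ core TGGGAA was present within 100 bp of the L3MBTL3 summit, on either strand, at 44 of 127 overlapping members (34.6%, 26.9 to 43.3) and at 10 of 92 adjacent members (10.9%, 6.01 to 18.9). The odds ratio was 4.35 (2.05 to 9.22; Fisher's exact test, p adjusted over 9 words by the Benjamini-Hochberg method = 5.05e-04). High-affinity words, which contain the core, were present at 23 overlapping members (18.1%) and 5 adjacent members (5.43%), with an odds ratio of 3.85 (1.40 to 10.5, Fisher's exact test, adjusted p = 0.0311). Among all TSS, windows of the same 201 bases held the core in 14.8% and a high-affinity word in 1.46%, and at CpG-rich TSS in 12.4% and 1.26%. The RBPJ words are not independent of the choice of members, because the RBPJ summit lay within 100 bp of the L3MBTL3 summit at 97 overlapping and only 3 adjacent members. Centred on the RBPJ summit instead, the core was found at 35.8% of the 123 partners of overlapping members, 30.9% of the 68 partners of adjacent members and 29.5% of all RBPJ peaks. High-affinity words were found there at 21.1%, 10.3% and 8.51%.

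The call for high-affinity words was lost with 1 peak per region (odds ratio 2.50, adjusted p = 0.257), at promoter peaks only (2.61, adjusted p = 0.202), with 50 bp to either side (5.13, adjusted p = 0.124) and without the 5 members nearest to ZNF337 on chromosome 20, 4 of them near-identical copies shown last (3.34, adjusted p = 0.0525), by Fisher's exact test. The call for the core held in each of these settings, with odds ratios of 3.48 to 4.70. All of them kept the window on the L3MBTL3 summit, so the core call stays dependent on the choice of members.

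With each peak counted, the 219 members did not pass the test against the other L3MBTL3 peaks for these words. The core was at 54 of 219 members (24.7%) and 34 of 225 others (15.1%), with an odds ratio of 1.84 (1.14 to 2.96; Fisher's exact test, adjusted p = 0.113). High-affinity words were at 12.8% and 7.56% (odds ratio 1.79, 0.952 to 3.38, Fisher's exact test, adjusted p = 0.253). With 1 peak per region, the one with the highest fold, 28 of 150 member regions held a high-affinity word, 23 of them at an overlapping peak, against 12 of 176 others (odds ratio 3.14, Fisher's exact test, adjusted p = 0.00566). The core gave an odds ratio of 2.71 (Fisher's exact test, adjusted p = 0.00340). Members lie near RBPJ peaks by the rule and the other peaks do not, so these RBPJ word counts are no independent evidence of RBPJ at members. The GC box GGGGCGGGG is not an RBPJ word. It was at 30 of 127 overlapping members and 27 of 225 other peaks (odds ratio 2.27, Fisher's exact test, adjusted p = 0.0191). This comparison was added after the data had been seen. The overlapping share of 23.6% (17.1 to 31.7) was near the 20.7% at CpG-rich TSS, and the other peaks lay below that. At all TSS it was 13.2%. Promoter position is not independent of the rule, so the GC box may not be either. All members against other peaks did not pass for it (Fisher's exact test, adjusted p = 0.253). Nor did overlapping against adjacent members (Fisher's exact test, adjusted p = 0.0619). Adjacent members against other peaks passed for none of the 9 words by this test, adjusted or not, with odds ratios of 0.703 (0.252 to 1.97) for high-affinity words and 0.685 (0.323 to 1.45) for the core.

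**Figure D3:**
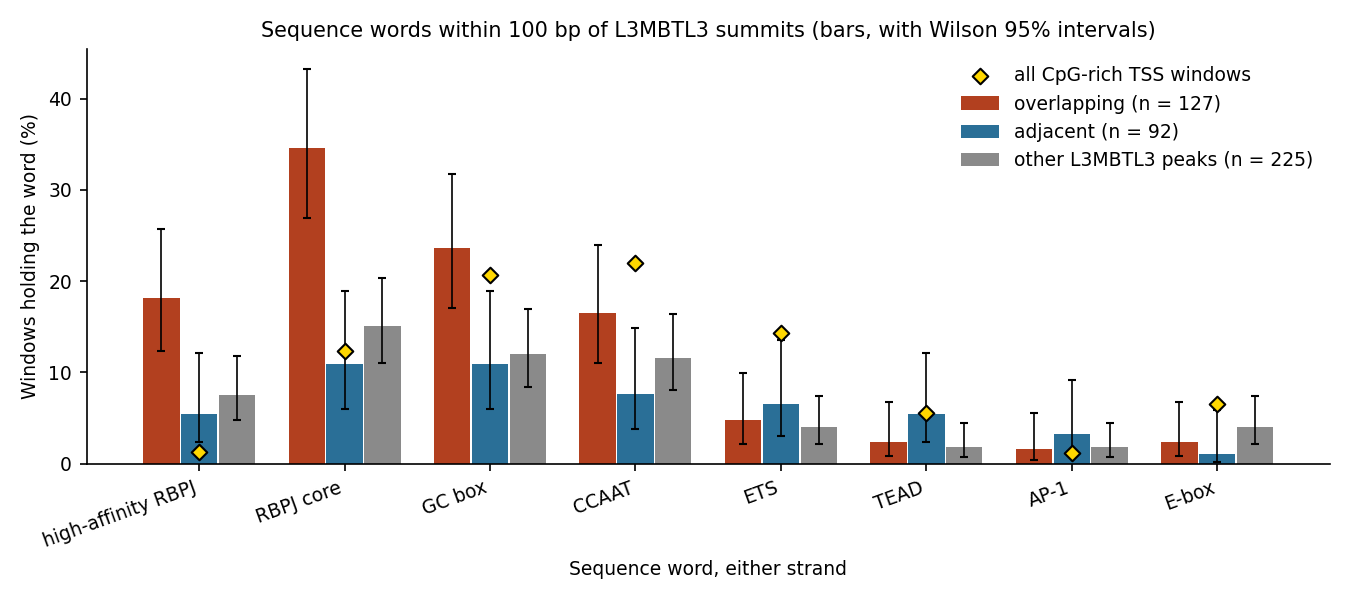
Share of L3MBTL3 summit windows (100 bp to either side) that hold each word on either strand, in percent (y axis), for 127 overlapping members, 92 adjacent members and 225 other L3MBTL3 peaks. Bars are shares, lines are Wilson 95% intervals, and diamonds are the shares of all CpG-rich TSS windows. The overlapping members stand above the adjacent members for the RBPJ core (34.6% against 10.9%).

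The high-affinity word was present at 9 of 25 overlapping members whose summit was over 1 kb from a TSS (36.0%, 20.2 to 55.5). At promoters 14 of 102 overlapping members held it (13.7%, 8.36 to 21.7). The difference was not tested, and the 9 are not all separate sequences. They include copies A, C and D of the near-identical chromosome 20 sequence shown last, and SPEN, only 1068 bp from its TSS. None of the 5 distal adjacent members held the word. Distal overlapping members with the word, named here after their values were seen, include 1 upstream of HES1, the archetypal Notch target, and 1 upstream of ID1, an inhibitor of helix-loop-helix factors. The HES1 member lay 64927 bp and the ID1 member 17346 bp upstream of the nearest TSS. Within pairs that had a word within 250 bp of the summits, the word was nearer to RBPJ at 22 of 34 overlapping pairs (64.7%, 47.9 to 78.5). It was nearer to RBPJ at 11 of 18 adjacent pairs (61.1%, 38.6 to 79.7), and both intervals include an even split. These pairs held 31 and 14 distinct words, since neighbouring members share a word.

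Peak strength is given as the deposited fold enrichment over the caller's local background, which has no error of its own here. The median L3MBTL3 fold was 5.86 at overlapping members, 5.37 at adjacent members and 5.47 at the other L3MBTL3 peaks. Overlapping L3MBTL3 peaks had a median width of 122 bp, adjacent ones 78 bp and others 80 bp, and a wider peak is more likely to overlap by the rule. The RBPJ partners had a median fold of 5.56 for overlapping and 5.06 for adjacent members, against 5.08 over all RBPJ peaks. Within pairs the 2 folds were weakly related (Spearman's rho 0.228 over 127 overlapping and 0.194 over 92 adjacent pairs, in which several members share a partner).

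**Figure D4:**
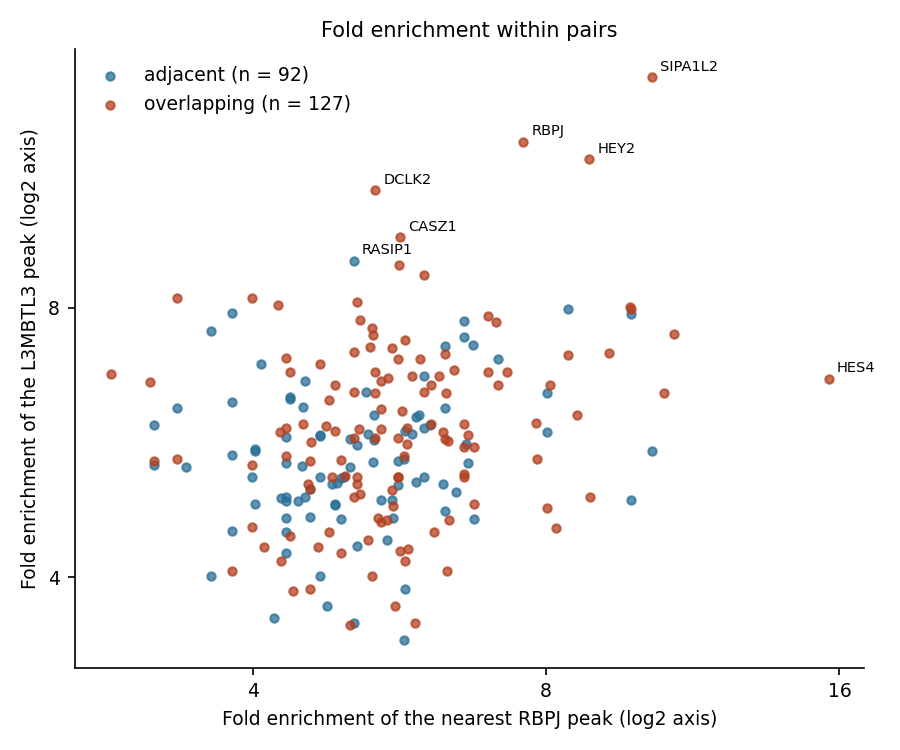
Fold enrichment of each member (y axis, log2 scale) against that of its nearest RBPJ peak (x axis, log2 scale), for 127 overlapping and 92 adjacent members. SIPA1L2 has the highest L3MBTL3 fold (14.5), and HES4 the highest RBPJ fold (15.6) with an L3MBTL3 fold of 6.67.

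The strongest overlapping member was a promoter peak of SIPA1L2, a GTPase-activating protein for Rap, in an intron 166 bp downstream of the TSS. This member had an L3MBTL3 fold of 14.5 and an RBPJ fold of 10.3. It spanned 799 bp at chr1:232765546-232766344, and its summit was 16 bp from that of RBPJ. The promoter of the RBPJ gene itself came next, at chr4:26321058-26321435, with an L3MBTL3 fold of 12.3 and an RBPJ fold of 7.57. HEY2, a Notch target that encodes a repressor, followed at chr6:126070343-126070949 with 11.7 and 8.86, and the peaks shared 589 bases. DCLK2, a microtubule-associated kinase, had an L3MBTL3 fold of 10.8 and an RBPJ fold of 5.34.

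The other overlapping members among the 12 strongest had L3MBTL3 folds of 8.01 to 9.59. They were at CASZ1, a zinc finger factor, 48991 bp upstream of the nearest TSS within an intron, at DGKH, a diacylglycerol kinase, at ZNRF2, a ubiquitin ligase, and at SPEN, the RBPJ corepressor. The rest were at PIGX, which acts in GPI anchor synthesis, in the host gene of miR-29 (MIR29B2CHG), at ZFP64, a zinc finger gene, and in an intron of EXD3. The last lay 13899 bp upstream of NRARP, a Notch target that limits Notch signalling, and had an RBPJ fold of 9.74.

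The strongest adjacent member was at RASIP1, a Ras-interacting protein of vessels, with an L3MBTL3 fold of 9.03 and a gap of 105 bases to an RBPJ peak of fold 5.08. SLC12A2, a sodium, potassium and chloride cotransporter, followed with 7.97 and a gap of 20 bases, then MAP3K8, a kinase of inflammatory signalling, with 7.88 and 76 bases. NAPG, a SNARE recycling factor, had an adjacent member of 7.87, beside an overlapping one of 7.97. GCNT4, a glycosyltransferase gene, had 2 of the 10 strongest adjacent members, with folds of 7.73 and 7.43. The others were at SAMD1 (7.54), which encodes a CpG island binding protein, ST3GAL3 (7.27), the MYC family gene MYCL (7.25) and the dystroglycan gene DAG1 (7.01).

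Several promoters carried series of narrow L3MBTL3 peaks around few RBPJ peaks. NANOS1, an RNA-binding repressor of translation, had 5 members and 1 RBPJ peak. Their summits lay at -235, 58, 238, 439 and 575 bp from the TSS, and the RBPJ summit lay at 248 bp, in the same stretch as the middle one. That overlapping peak had the highest L3MBTL3 fold of the 5 (6.91, against 4.02 to 5.77 at the other four). ZFP64 also had 5 members, with 3 RBPJ peaks, and each RBPJ summit was within 100 bp of an L3MBTL3 summit.

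MYCL, SAMD1, GCNT4 and ZNRF2 had 4 members each. At MYCL the RBPJ summit lay at 256 bp, the overlapping L3MBTL3 summit at 215 bp and the adjacent ones at 442, 74 and -123 bp. The upstream adjacent peak had a fold of 7.25, close to the 7.11 of the overlapping one. ZNRF2 had its highest fold at the overlapping peak (8.69, against 5.17 to 6.72 at its adjacent ones). GCNT4 had it at an adjacent peak (7.73, against 5.22 and 5.94 at its overlapping ones), and so did SAMD1 (7.54, against 5.94). The promoters with 3 members were at MAP3K8, MXI1, BICDL1, NAPG, ASAP2, NOL4L, TPPP, RREB1, TMEM170B, FKBP5 and LRRC26. At NOL4L all 3 were adjacent.

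**Figure D5:**
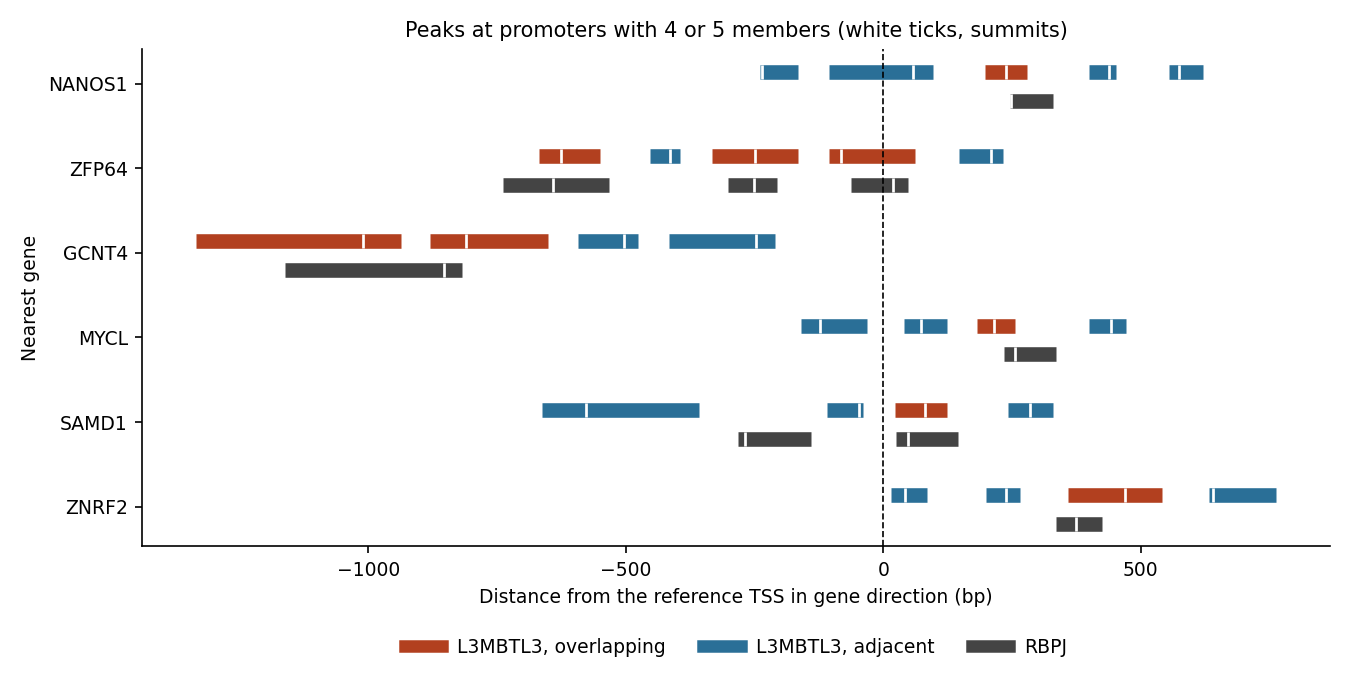
Peaks at the 6 promoters with 4 or 5 members, drawn as bars along the distance from 1 TSS in bp in the direction of transcription (x axis), by gene (y axis). L3MBTL3 peaks are red where they overlap an RBPJ peak and blue where they are adjacent, RBPJ peaks are dark, and white ticks are summits. At NANOS1, MYCL, ZNRF2 and GCNT4 a single RBPJ peak faces 4 or 5 L3MBTL3 peaks.

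Of all 19748 protein-coding genes, 157 (0.795%) had a member summit within 10 kb of a TSS. Among 26 Notch target genes 3 did: HES4, HEY2 and NOTCH1. Among 37 genes of the Notch pathway 2 did, NOTCH1 and RBPJ, so NOTCH1 counts in both lists. Among 28 genes of corepressors and demethylase complexes 3 did: SPEN, KDM1B and PHF21A. None of the 9 genes with MBT domains did. Any L3MBTL3 peak, member or not, was this near at 7 of the 26 targets and 2 of the 37 pathway genes. The same held for 4 of the 28 corepressor genes and 1 of the 9 MBT genes, against 313 of all 19748. Within 10 kb of a TSS, RBPJ summits were found at 11 of the 26 targets, 12 of the 37 pathway genes and 12 of the 28 corepressor genes, against 11.3% of all protein-coding genes.

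HES4, a repressor of the HES family, had an overlapping member with its summit 18 bp upstream of the TSS and an L3MBTL3 fold of 6.67. NOTCH1, the receptor gene, had an overlapping member (fold 5.81, 144 bp upstream) and an adjacent member (fold 5.09, 78 bp downstream) at the same RBPJ peak of fold 6.27. SPEN had 2 overlapping members, of folds 8.20 and 5.42, 1068 and 1227 bp upstream of the TSS within the antisense gene SPEN-AS1, at an RBPJ peak of fold 3.35. KDM1B, a histone demethylase related to KDM1A, had an overlapping member of fold 5.96 with its summit 10 bp upstream of the TSS. PHF21A, a histone-reading subunit of the KDM1A complex, had an adjacent member of fold 5.32, 477 bp upstream of the TSS and 237 bases from the RBPJ peak.

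Members were unevenly spread over chromosomes. Chromosome 6, singled out after the values were seen, held 43 of them, 75.4% of its 57 L3MBTL3 peaks (62.9 to 84.8). Elsewhere the share was 45.5% of 387 peaks (40.6 to 50.5). It held 327 of the 2926 RBPJ peaks (11.2%). Its members were not spread along the chromosome. All but those nearest to EEF1A1, HEY2, STX11 and THBS2 lay between its start and BEND6 (chr6:56819508-56820087). Shares by chromosome arm were not computed. Chromosomes with fewer L3MBTL3 peaks ranged widely: 15 of 18 were members on chromosome 20, 13 of 18 on chromosome 5 and 0 of 15 on chromosome 16. Without the whole of chromosome 6 the count over TSS placement was 7.41 times for all members, 17.1 for overlapping and 4.29 for adjacent members.

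On chromosome 20, 4 overlapping members in the related genes FAM182B and FAM182A held the same word in near-identical surroundings. They are shown along the word because they bear on the word counts above.
Copy A, chr20:25840580-25840639, plus strand: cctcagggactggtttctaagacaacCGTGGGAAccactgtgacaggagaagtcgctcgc
Copy B, chr20:25842243-25842302, plus strand: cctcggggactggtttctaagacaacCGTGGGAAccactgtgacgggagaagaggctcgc
Copy C, chr20:25843900-25843959, plus strand: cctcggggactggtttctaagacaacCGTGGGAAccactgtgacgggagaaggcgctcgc
Copy D, chr20:26037975-26038034, minus strand: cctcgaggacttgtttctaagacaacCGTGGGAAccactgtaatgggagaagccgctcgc
Over 208 bases centred on the word the 4 copies were 88.0% to 97.1% identical in pairs. The RBPJ summit lay 4.5, 6.5 and 1.5 bp upstream of the centre of the word in copies A, B and D and 10.5 bp downstream in copy C. The L3MBTL3 summit lay 66.5 and 19.5 bp downstream in copies A and D and 216.5 and 24.5 bp upstream in copies B and C. By the median number of exact genome copies over 5 words of 50 bases, copy D occurred 2 times in the genome and the other three once. By this count 10 of 219 members lay in repeated sequence, 8 of them overlapping, as did 6 of the 225 other L3MBTL3 peaks. Without these peaks 209 members remained, 7.45 times the placed mean.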

How the data were processed

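RBPJ, L3MBTL3 and input DNA were each sequenced in 1 MDA-MB-231 library. Per the labels' protocols, 50-cycle single-end reads (30 to 40 M aligned per sample; M, megareads) were cleared of adaptors (Trimmomatic) and placed on hg19 by BWA 0.7.15. Per the submitters' processing notes peaks were called with MACS2. Not given in the sources used here are its version, its control and its handling of reads that match several places. The deposited values were the peak limits, the summit, a score, the fold enrichment, a ratio of the summit to the background, and the -log10 p and -log10 q. The authors deposited no replicates, and peaks carry no read counts, so the error of a fold is unknown.

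Coordinates are 1-based. Sequence comes from GRCh37 and genes from GENCODE 44 lifted to it. A promoter peak has its summit within 1 kb of a protein-coding TSS. L3MBTL3 peaks within 1000 bases of each other were joined into regions. Placement used every TSS in turn, with no random draw and no p. Words and TSS positions were compared by Fisher's exact test (scipy 1.17.1, two-sided, Woolf intervals), with p-values for words adjusted over 9 words per comparison. The 9 words were high-affinity RBPJ (TGTGGGAA or CGTGGGAA), RBPJ core (TGGGAA), GC box (GGGGCGGGG), CCAAT box (CCAAT), E-box (CACGTG), CRE (TGACGTCA), AP-1 (TGACTCA or TGAGTCA), TEAD (GGAATG) and ETS (CCGGAAG). They were searched on both strands, and the high-affinity RBPJ words contain the core. Several peaks share a promoter, so p-values over peaks are too small and intervals over peaks too narrow. Scripts were tested on simulated data.

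Named were the 12 overlapping and 10 adjacent members of highest L3MBTL3 fold, members within 10 kb of a TSS of a listed gene, the 3 peaks on either side of the limit and promoters with 3 or more members. Members, lists and tests were chosen with earlier results of these data known. Alternatives were other gaps, a summit distance, only peaks with a -log10 q of 5 or more, other windows, merged regions and other sets of TSS.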

Additional observations from a re-analysis of the deposited data

How the results depend on the processing

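Among peaks with a -log10 q of 5 or more, 35 of 103 L3MBTL3 peaks were members and 23 overlapped. These were 23.8 times (all), 48.9 times (overlapping) and 11.99 times (adjacent) the placed mean, against 7.63, 17.5 and 4.29. With TSS of the same CpG class the ratios were 4.71, 10.4 and 2.69, and with 1 TSS per gene the overlapping ratio was 14.3. At promoters with an RBPJ summit, added after the data had been seen, the ratios were 1.07, 2.08 and 0.673. There nearly every peak is within 1 kb by the choice of TSS, so the adjacent ratio is what overlap leaves. Member counts of 177 to 227 (gaps of at most 200 to 5000 bases), 218 by summit distance and 150 merged regions stayed within 1.5 times the count used. The downstream share of L3MBTL3 summits was 52.0% to 55.0% under its 6 alternatives. High-affinity words in members over other peaks gave odds ratios of 3.14 with 1 peak per region, and the core gave 2.71 there and 1.90 within 250 bp of the summit, each passing where the value used did not. High-affinity words in overlapping over adjacent members no longer passed with 50 bp to either side (5.13), at promoter peaks (2.61), with 1 peak per region (2.50, added after the data had been seen) or without the chromosome 20 copies (3.34, added likewise). Promoter position over other peaks passed with a 2 kb window (2.01). The cause of these changes in the word and promoter calls was not tested. No other ratio crossed 1 among the alternatives run. No library could be left out, because each antibody had 1. Depth per peak is not given, so faint peaks missed in either list cannot be counted.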
